A study of Mus musculus with 36 samples.

Results

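Oxidative phosphorylation subunit genes were followed in mouse bone marrow-derived macrophages after lipopolysaccharide (LPS). The genes were chosen by symbol alone. They are the rows whose symbol starts with Nduf, Uqcr, Cox4, Cox5, Cox6, Cox7, Cox8 or Atp5, together with Sdha, Sdhb, Sdhc, Sdhd, Cyc1 and Cycs. This gave 91 of 16416 genes, and 88 of them reached the level set for testing, as did 11656 genes in all. The prefix also catches genes that are not subunits: 7 Ndufaf genes encode assembly factors of complex I, and Atp5sl, now named Dmac2, is likewise known as a complex I assembly factor. Ndufa4 and Ndufa4l2 are placed with complex IV, where the Ndufa4 protein is known to sit. Cox4i2, Cox6b2 and Ndufa4l2 stayed below the level for testing, with single libraries of at most -0.50, 2.13 and -3.21 on the log2 scale.

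Bone marrow had been cultured for 7 days on plates of a non-adherent kind in RPMI that held fetal calf serum (10%) and L929 supernatant (10%), a source of macrophage growth factor. The cells carried Tnip2[D310N], a form of Tnip2 with 1 changed residue, or the wild-type gene (WT). Cells of either genotype were left without LPS (0 min) or given 100 ng/ml LPS for 30, 60, 120, 240 or 360 min, with 3 libraries in each of the 12 groups. Tnip2 encodes ABIN-2, a partner of the kinase Tpl2 in LPS signalling. The titles do not say whether the 3 libraries of a group came from separate mice, so p-values measure the spread between these libraries, which may be technical.

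The respiratory chain of the inner mitochondrial membrane passes electrons from NADH (complex I) and succinate (complex II) through complex III and the mobile carrier cytochrome c to oxygen at complex IV, and complex V makes ATP from the proton gradient that results. Most subunits are encoded in the nucleus, and those genes make up the set described here; the subunits encoded in mitochondrial DNA are outside the rule. Macrophages given LPS are known to turn towards glycolysis and to use succinate and complex II as a source of signals, so that the RNA of these subunits during the first hours is of interest. Cytochrome c also has a role in starting apoptosis when it leaves the mitochondria.

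Values are the deposited normalised log2 values, in which 1 unit is a doubling. Differences are log2 differences ± SE from limma, with 3 libraries per group, and a call means an adjusted p under 0.05 over all 11656 genes. The libraries correlated by at least 0.989 within a group. Macrophage markers were high in all 36 libraries, with means over the 36 libraries from 10.2 (Mertk) to 17.0 (Lyz2). Of the markers of other cell types, some of those for neutrophils (Elane, Mpo, Ly6g), T cells (Cd3d, Cd3g), B cells (Cd79a) and NK cells (Ncr1) had mean values from -3.95 to -0.74. Others of the same lists stood higher, among them S100a8 (mean 3.24) and S100a9 (3.28) for neutrophils, Cd79b (4.61) for B cells and Klrb1c (1.78) for NK cells. Of the listed markers in the table, 2 of 8 for neutrophils, 1 of 4 for T cells, 1 of 4 for B cells, 2 of 4 for dendritic cells and 2 of 4 for stroma reached the level for testing, the highest being Cd4 (mean 6.65) and Pdgfrb (mean 5.17, with libraries from 3.36 to 7.01); the part of these cells in the results was not tested. The summed linear level of the 8 macrophage markers ran from 217000 to 280000 in D310N and from 228000 to 280000 in WT. In bulk RNA, fewer cells that express a gene and less RNA per cell cannot be told apart.

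Upstream sequence is shown first for members that the results turn on. Cycs (chromosome 6, 50562563 to 50566538, minus strand, GENCODE M21 on GRCm38) rose most in WT at 240 min as deposited, and Uqcrfs1 (chromosome 13, 30540308 to 30545362, minus strand) had the largest rise in complex III. Sdhd (chromosome 9, 50596357 to 50603812, minus strand) stood highest in complex II in WT at 240 min, as deposited and after quantile normalisation. Ndufaf7 (chromosome 17, 78937136 to 78948052, plus strand) fell most at that time as deposited. After quantile normalisation Ndufs4 (0.77) stood above Cycs (0.75), and Atp5sl (-0.83) below Ndufaf7 (-0.82). For each, the 250 bases before the RefSeq start (GRCm38.p6) are given on the gene's strand at chr6:50566570-50566819, chr13:30545317-30545566, chr9:50603850-50604099 and chr17:78936885-78937134. Capitals mark matches to 5 motifs searched on both strands: the cyclic AMP response element TGACGTCA, the nuclear respiratory factor 1 (NRF-1) motif GCGCANGCG, the ETS motif CCGGAAG bound by GABP, the YY1 motif AAGATGGCG and the NF-kB motif GGGACTTTC.
Cycs: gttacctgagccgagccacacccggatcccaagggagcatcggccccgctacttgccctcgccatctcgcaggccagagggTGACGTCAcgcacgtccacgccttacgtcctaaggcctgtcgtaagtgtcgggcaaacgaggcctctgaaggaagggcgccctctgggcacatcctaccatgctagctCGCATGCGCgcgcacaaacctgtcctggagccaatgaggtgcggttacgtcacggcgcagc
Uqcrfs1: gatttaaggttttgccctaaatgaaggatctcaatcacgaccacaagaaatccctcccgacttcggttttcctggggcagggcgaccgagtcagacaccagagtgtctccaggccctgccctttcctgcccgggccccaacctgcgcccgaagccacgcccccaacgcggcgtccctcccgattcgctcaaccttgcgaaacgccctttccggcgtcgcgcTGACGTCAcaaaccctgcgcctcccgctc
Sdhd: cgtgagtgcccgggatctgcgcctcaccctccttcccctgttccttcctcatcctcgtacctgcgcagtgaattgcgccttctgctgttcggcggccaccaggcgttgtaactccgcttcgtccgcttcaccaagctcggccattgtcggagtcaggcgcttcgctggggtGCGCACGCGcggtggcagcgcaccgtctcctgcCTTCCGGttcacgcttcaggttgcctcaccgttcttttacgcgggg
Ndufaf7: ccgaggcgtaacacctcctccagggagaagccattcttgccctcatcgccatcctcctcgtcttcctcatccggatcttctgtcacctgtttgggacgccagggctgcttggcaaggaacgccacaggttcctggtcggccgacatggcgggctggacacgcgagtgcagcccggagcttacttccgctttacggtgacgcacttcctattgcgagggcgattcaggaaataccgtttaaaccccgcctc

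The cyclic AMP response element starts 169 bases before the Cycs start and 29 bases before the Uqcrfs1 start, and an NRF-1 match on the other strand starts 61 bases before the Cycs start. Upstream of Sdhd, the NRF-1 match starts at 79 bases and the ETS match, on the other strand, at 46 bases, and the Ndufaf7 stretch holds none of the 5 motifs. A window of 300 bases, 250 before to 50 after the start, was at hand for 75 of the 91 members. The NRF-1 motif was in 23 of these 75 windows (30.7%), against 7.03% of all 27025 genes with a window. The ETS motif was in 17 (22.7%), against 9.93% of all genes, the YY1 motif in 8 (10.7%), against 1.64%, and the cyclic AMP response element in 5 (6.67%), against 2.03%. At least 1 of the NRF-1, ETS and YY1 motifs was in 40 windows (53.3%), against 16.5% of all genes. All genes here are the 27025 with a window, whether or not they were tested in these macrophages. The shares among the tested genes alone were not counted. The NF-kB motif, that of the best known transcription factor of the LPS response, was in 1 of the 75 windows (1.33%), that of Ndufv3, against 0.403% of all genes. No motif is part of another, and a match describes letters, not a bound site. As a description, tested members with the NRF-1 motif had a median log2 difference at 240 min of LPS in WT of 0.142 and those without it 0.199. With and without the ETS motif the medians were 0.218 and 0.142.

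As deposited, few of the members were called in WT macrophages at 30 and 60 min of LPS. At 30 min 0 of the 88 tested members were called, against 4.79% of all tested genes called higher and 1.3% called lower, and their median log2 difference was -0.079, with 79 of 88 negative; without WT replicate 2 of 0 min, WT replicate 2 of 30 min or WT replicate 1 of 360 min the count was 3, 1 and 1. At 60 min 4 were higher and 1 lower, against 20.1% and 17.1% of all tested genes; without WT replicate 1 of 0 min 3 were called. The 4 were Atp5a1, Atp5b, Cycs and Uqcrfs1, and the 1 lower was Atp5sl, all named after their values were seen. At 120 min 38 were higher and 5 lower, against 32.4% and 34.2% of all tested genes, at 240 min 56 and 6, against 39.6% and 40.4%, and at 360 min 45 and 9, against 39.3% and 41.0%. The members' median difference was 0.13, 0.20 and 0.16 at these 3 times, and the median over all tested genes lay between -0.03 and -0.02. Of the 88 members, 34 were first called higher at 120 min and 19 at 240 min, and 31 were never called higher. In WT, 39 members had their highest group mean at 240 min and 29 at 360 min, and 67 had their lowest at 30 min. The counts of first calls and of highest and lowest means are as deposited. They were not made over all tested genes, so nothing is read from them.

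These splits depended on how the libraries were scaled. Quantile normalisation, which gives each library the same distribution of values, turned 38 higher and 5 lower at 120 min into 15 and 16, 56 and 6 at 240 min into 23 and 25, and 45 and 9 at 360 min into 21 and 28. At 30 and 60 min it gave 0 higher and 12 lower and 1 higher and 17 lower, against 5.16% and 5.33%, and 16.1% and 29.4%, of all tested genes. At the 3 later times 27.6%, 33.6% and 34.1% of all tested genes were then called higher and 40.3%, 45.0% and 44.7% lower. The members' median difference at those 3 times was -0.031, -0.0012 and -0.011, with -0.08 to -0.10 over all tested genes. At 240 min the change followed the members' own level. In the 22 members with the lowest mean values, 3.26 to 8.67, the median difference was 0.063 as deposited and 0.219 after quantile normalisation. In the 22 with the highest, 10.4 to 13.5, it was 0.319 as deposited and -0.190 after quantile normalisation. In each of the 3 parts of 22 above the lowest, all 22 members moved downward under this scaling. Shifting each library by its median, or by a trimmed mean of its differences, left 57 and 58 higher at 240 min. These shifts stayed close to the values as deposited, with 56 higher, so the 4 scalings are not 4 separate checks. Which scaling is right cannot be told from the deposited table. A call made under all 4 scalings was made for 8 higher members at 120 min, 17 at 240 min and 13 at 360 min, against 23.5%, 29.0% and 29.1% of all tested genes. It was made for 2, 5 and 7 lower members, against 28.2%, 33.6% and 33.8%. The number of members called higher and the sign of their median thus depend on the scaling. The accounts by complex give values under quantile normalisation for most members beside those as deposited. A value without a stated scaling is as deposited. Cytosolic ribosomal protein genes also depended on the scaling, with 62 of 79 higher and 0 lower in WT at 240 min as deposited and 3 and 72 after quantile normalisation. Their median was then -0.55, so most of them turned lower, whereas the members split into 23 higher and 25 lower. What the 2 groups of genes share was not tested.

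**Figure D1:**
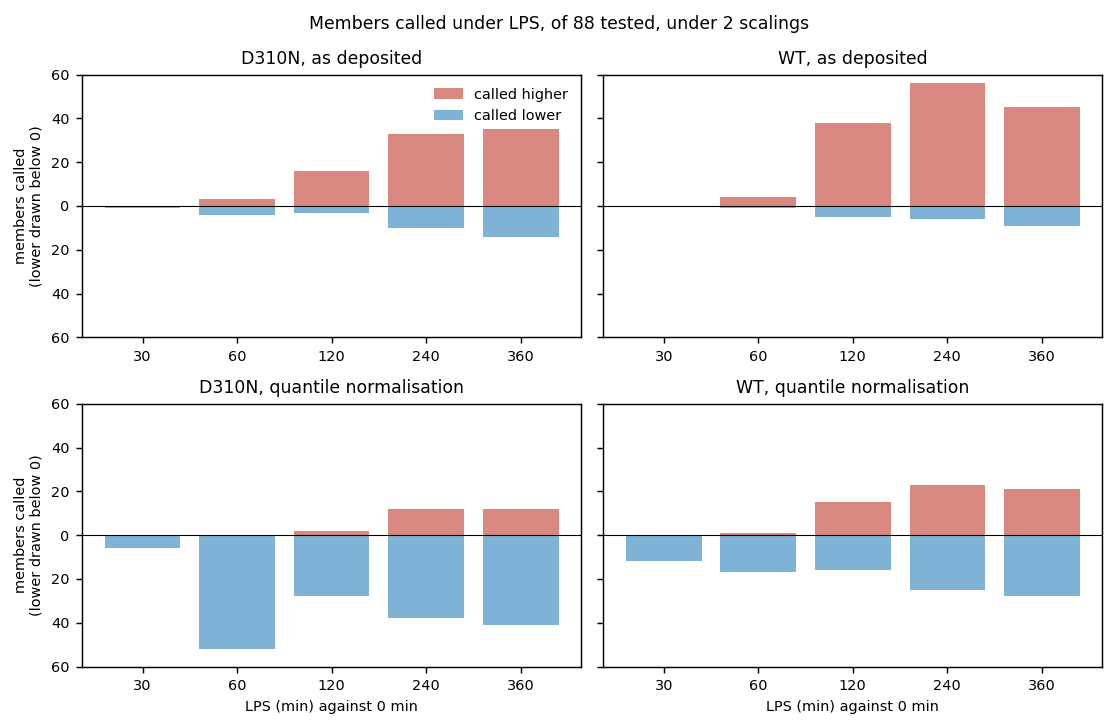
Members called higher (above 0) and lower (drawn below 0) at each LPS time against 0 min, of 88 tested, in D310N and WT, on the values as deposited and after quantile normalisation. In WT at 240 min the bars show 56 higher and 6 lower as deposited, and 23 higher and 25 lower after quantile normalisation.

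Cycs, which encodes the somatic form of cytochrome c, rose more than any other member at 240 and 360 min as deposited. In D310N it stood at 12.10, 12.01 and 12.04 after 240 min of LPS, against 11.08, 10.87 and 11.02 at 0 min. In WT the values were 12.21, 12.13 and 12.27 after 240 min, against 10.79, 10.88 and 10.90 at 0 min. No library after 240 min fell as low as any at 0 min. The difference at 120, 240 and 360 min was 0.28 ± 0.07, 1.06 ± 0.07 and 1.40 ± 0.07 in D310N, and 0.47 ± 0.07, 1.34 ± 0.07 (adjusted p = 7.07e-17) and 1.56 ± 0.07 in WT. After quantile normalisation the WT value at 240 min was 0.75 (adjusted p = 4.15e-11). The annotation lists 2 pseudogenes named after Cycs, so some reads of this gene may be shared with them.

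**Figure D2:**
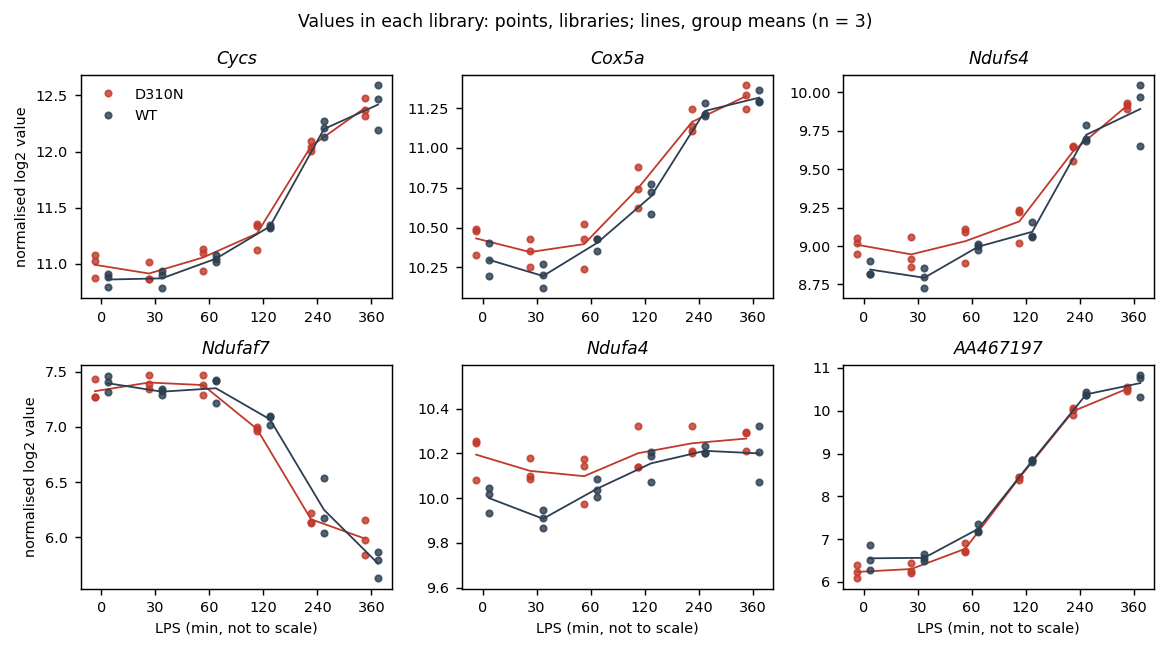
Normalised log2 values of 6 genes in each library along the LPS time course, D310N and WT, with a line through the group means (n = 3). Cycs, Cox5a and Ndufs4 stand higher and Ndufaf7 lower at 240 min than at 0 min in both genotypes, under all 4 scalings; Ndufa4, whose WT difference turns negative after quantile normalisation, moves by 0.21 in WT and its paralogue AA467197 by 3.83.

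Complex I takes electrons from NADH and is the largest of the complexes. Of its 36 tested subunit genes 20 were higher and 2 lower in WT at 240 min, against 39.6% and 40.4% of all tested genes, with a median of 0.15. After quantile normalisation 12 were higher and 5 lower, against 33.6% and 45.0%, with a median of 0.058. Called higher under all 4 scalings were 10, against 29.0%, among them Ndufs4, Ndufv2, Ndufs3, Ndufa1 and Ndufab1. The counts of 12 and 10 are close to these shares, so they are not read as a rise of the complex. The same shares are the background for the other complexes in WT at 240 min. Ndufs4, an accessory subunit of the NADH-oxidising arm, stood at 9.65, 9.56 and 9.65 in D310N after 240 min, against 9.05, 8.95 and 9.02 at 0 min. In WT the Ndufs4 values were 9.70, 9.68 and 9.79, against 8.90, 8.82 and 8.82. The groups did not overlap, and the difference was 0.61 ± 0.07 in D310N and 0.88 ± 0.07 in WT (adjusted p = 1.86e-12). Ndufv2, an iron-sulphur subunit that takes part in NADH oxidation, rose by 0.41 ± 0.05 in D310N and 0.47 ± 0.05 in WT. Under quantile normalisation Ndufs4 was at 0.48 in D310N and 0.77 in WT, and Ndufv2 at 0.16 and 0.24. Ndufs3, a core subunit, rose by 0.26 ± 0.05 and 0.45 ± 0.05, and Ndufa1, a small membrane subunit, by 0.16 ± 0.07 and 0.33 ± 0.07. After quantile normalisation neither was called in D310N, with Ndufs3 at 0.10 (adjusted p = 0.0941) and Ndufa1 at 0.12 (adjusted p = 0.111).

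Ndufv3, an accessory subunit near the NADH site, had the largest called fall of the complex I subunit genes in WT at 240 min. It stood at 8.50, 8.56 and 8.65 in D310N after 240 min, against 8.87, 8.74 and 8.81 at 0 min, and at 8.58, 8.58 and 8.46 in WT, against 8.93, 8.69 and 8.80. Its difference was -0.24 ± 0.08 in D310N and -0.26 ± 0.08 in WT (adjusted p = 0.00337), and -0.26 after quantile normalisation in WT. Ndufa6, an accessory subunit of the peripheral arm, was called lower in D310N (-0.24 ± 0.08, adjusted p = 0.00605) and in WT (-0.18 ± 0.08, adjusted p = 0.0344). Its WT libraries overlapped, and the adjusted p in WT was 0.174, 0.0797 and 0.153 without WT replicate 1 or 3 of 0 min or WT replicate 3 of 240 min.

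The assembly factors of complex I build it but are not part of it. Of the 7 Ndufaf genes, 1 was higher and 2 lower in WT at 240 min, against 39.6% and 40.4% of all tested genes. After quantile normalisation 5 were higher and 2 lower, against 33.6% and 45.0%. The counts are small and change with the scaling, so no direction is given for these genes as a group. Ndufaf7 encodes a methyltransferase known to act in complex I assembly. Its RNA fell to 6.13, 6.22 and 6.14 in D310N, against 7.27, 7.43 and 7.27 at 0 min, and to 6.18, 6.04 and 6.54 in WT, against 7.32, 7.46 and 7.41. The Ndufaf7 difference was -1.16 ± 0.09 in D310N and -1.15 ± 0.09 in WT at 240 min (adjusted p = 1.08e-12). At 360 min it was -1.34 ± 0.09 in D310N and -1.63 ± 0.09 in WT. Ndufaf4, another of these factors, fell by 0.57 ± 0.10 in D310N and by 0.54 ± 0.10 in WT. Ndufaf5, known to hydroxylate the core subunit Ndufs7, rose by 0.36 ± 0.09 and 0.35 ± 0.09. Under quantile normalisation the values at 240 min in D310N and WT were -0.88 and -0.82 for Ndufaf7, -0.32 and -0.23 for Ndufaf4, and 0.65 and 0.70 for Ndufaf5.

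Complex II links the respiratory chain to the citric acid cycle by oxidising succinate, and all its 4 subunits are nuclear genes. Sdhd, which anchors the complex in the membrane, was at 10.70, 10.69 and 10.71 in D310N after 240 min, against 10.55, 10.47 and 10.52 at 0 min. In WT it was at 10.78, 10.76 and 10.77, against 10.45, 10.41 and 10.46. Its difference was 0.18 ± 0.04 in D310N and 0.33 ± 0.04 in WT (adjusted p = 6.12e-09), but -0.22 in D310N (adjusted p = 2.88e-05) and -0.09 in WT (adjusted p = 0.0596) after quantile normalisation. Sdhc, the other membrane anchor, gave 0.03 ± 0.04 in D310N and 0.16 ± 0.04 in WT, and -0.42 and -0.33 after quantile normalisation. Sdha, the flavoprotein that binds succinate, gave 0.21 ± 0.03 in D310N and 0.11 ± 0.03 in WT, and -0.41 and -0.56 after quantile normalisation. Sdhb, the iron-sulphur subunit, gave -0.18 ± 0.04 in D310N (adjusted p = 9.93e-05) and -0.02 ± 0.04 in WT (adjusted p = 0.551), and -0.56 and -0.42 after quantile normalisation. The order of the 4 in WT, Sdhd above Sdhc and Sdha above Sdhb as deposited, had Sdhd highest and Sdha lowest after quantile normalisation, so no direction is given for complex II.

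Complex III, which hands electrons to cytochrome c, had 7 of 9 tested genes higher and 0 lower in WT at 240 min, with a median of 0.28. After quantile normalisation 3 were higher and 1 lower, with a median of 0.038. Uqcrfs1, the Rieske iron-sulphur protein, was among the earliest members to rise, at 60 min by 0.11 ± 0.04 in D310N and 0.16 ± 0.04 in WT. At 240 min it stood at 10.16, 10.17 and 10.22 in D310N, against 9.78, 9.74 and 9.77 at 0 min, and at 10.28, 10.21 and 10.29 in WT, against 9.73, 9.70 and 9.65. The Uqcrfs1 difference was 0.42 ± 0.04 in D310N and 0.57 ± 0.04 in WT (adjusted p = 3.17e-13), and 0.31 after quantile normalisation in WT. Uqcrh, the hinge protein between cytochromes c1 and c, rose by 0.35 ± 0.05 and 0.48 ± 0.05 as deposited, with 0.0063 (adjusted p = 0.914) in D310N and 0.15 (adjusted p = 0.0101) in WT after quantile normalisation; 2 pseudogenes are named after it. Cyc1, which encodes cytochrome c1, rose by 0.25 ± 0.07 and 0.40 ± 0.07 as deposited and was not called after quantile normalisation in D310N (-0.0078, adjusted p = 0.924) or WT (0.14, adjusted p = 0.0662). The core protein gene Uqcrc2 rose by 0.36 ± 0.05 and 0.43 ± 0.05 as deposited, with -0.084 in D310N and -0.029 in WT after quantile normalisation. Uqcr10 and Uqcr11, small subunits, were not called in either genotype, at 0.06 ± 0.08 and -0.06 ± 0.10 in D310N and at 0.11 ± 0.08 and 0.06 ± 0.10 in WT. After quantile normalisation Uqcr10 was at -0.030 in D310N and 0.038 in WT, and Uqcr11 at -0.17 and -0.021.

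Complex IV, cytochrome c oxidase, reduces oxygen. Of its 14 tested genes 11 were higher and 0 lower in WT at 240 min as deposited, with a median of 0.30, the highest of the complexes with more than 1 gene. After quantile normalisation 1 was higher and 3 were lower, with a median of -0.014. The gene that stayed higher was Cox5a, which encodes a matrix-side subunit. It stood at 11.11, 11.14 and 11.25 in D310N, against 10.49, 10.33 and 10.48 at 0 min, and at 11.20, 11.21 and 11.28 in WT, against 10.40, 10.20 and 10.30. The Cox5a difference was 0.73 ± 0.07 in D310N and 0.93 ± 0.07 in WT (adjusted p = 1.1e-13), with 0.47 after quantile normalisation in WT. Its partner Cox5b rose by 0.22 ± 0.07 in D310N and 0.32 ± 0.07 in WT, and after quantile normalisation the values were -0.098 and 0.0024. Cox7a2 and Cox6c, small membrane subunits, rose by 0.40 ± 0.07 and 0.40 ± 0.06 in WT as deposited, and were not called after quantile normalisation (0.14, adjusted p = 0.0736, and 0.08, adjusted p = 0.212).

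Several complex IV subunits exist in tissue forms. Of the paired genes, the widely expressed Cox4i1, Cox6a1, Cox6b1 and Cox8a gave 0.34 ± 0.04, 0.29 ± 0.08, 0.31 ± 0.05 and 0.37 ± 0.09 in WT at 240 min as deposited, and -0.31, -0.18, -0.19 and -0.02 after quantile normalisation. The muscle forms Cox6a2 and Cox7a1 were low, with libraries from 2.25 to 4.06 for Cox6a2 and from 4.13 to 5.24 for Cox7a1, and were not called under LPS at 240 min as deposited (-0.09 ± 0.25 and 0.10 ± 0.16 in D310N, 0.14 ± 0.25 and -0.20 ± 0.16 in WT). After quantile normalisation Cox7a1 was at 0.37 in D310N (adjusted p = 0.0427) and 0.12 in WT (adjusted p = 0.536). Cox7a2l, known as a factor that joins complexes III and IV, was called lower in D310N at 240 min (-0.13 ± 0.04, adjusted p = 0.00718) and not in WT (-0.04 ± 0.04); in WT it was called at 360 min (-0.11 ± 0.04, adjusted p = 0.0171). After quantile normalisation Cox7a2l was called lower at 240 min in both, at -0.66 in D310N (adjusted p = 1.26e-13) and -0.62 in WT (adjusted p = 6.67e-13).

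Ndufa4 has a paralogue, AA467197 (the mouse gene of human C15orf48), whose protein is known to take its place in complex IV of inflamed cells. The paralogue's RNA was at 10.03, 9.89 and 10.05 in D310N after 240 min, against 6.08, 6.38 and 6.23 at 0 min. In WT the AA467197 values were 10.43, 10.36 and 10.36, against 6.50, 6.28 and 6.87. Its difference was 3.76 ± 0.11 in D310N and 3.83 ± 0.11 in WT at 240 min, and 4.28 ± 0.11 and 4.09 ± 0.11 at 360 min. Ndufa4 gave 0.05 ± 0.06 in D310N and 0.21 ± 0.06 in WT at 240 min (adjusted p = 0.00226 in WT), and -0.27 and -0.09 after quantile normalisation. At 0 min the Ndufa4 libraries stood at 10.26, 10.08 and 10.24 in D310N, against 10.05, 9.93 and 10.02 in WT. Over the 6 times the paralogue was lower in D310N than in WT (-0.33 ± 0.04, adjusted p = 3.62e-07) and Ndufa4 was higher (0.10 ± 0.02, adjusted p = 0.00112).

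Complex V, the ATP synthase, had 13 of 17 tested genes higher and 2 lower in WT at 240 min as deposited, with a median of 0.20. After quantile normalisation 1 was higher and 11 were lower, with a median of -0.19. Atp5o, which encodes the subunit that ties the catalytic head to the stalk, was the gene called higher under all 4 scalings in WT. It stood at 10.57, 10.63 and 10.58 in D310N, against 10.32, 10.19 and 10.22 at 0 min, and at 10.69, 10.71 and 10.71 in WT, against 10.26, 10.14 and 10.22. The Atp5o difference was 0.35 ± 0.04 and 0.49 ± 0.04, and after quantile normalisation -0.021 in D310N (adjusted p = 0.692) and 0.11 in WT (adjusted p = 0.0317). The catalytic head genes Atp5a1 and Atp5b rose by 0.52 ± 0.03 and 0.47 ± 0.04 in WT as deposited and fell after quantile normalisation, at -0.29 (adjusted p = 5.64e-11) and -0.38 (adjusted p = 1.14e-09). The 3 genes for the same membrane-ring protein, subunit c, differed as deposited, with Atp5g3 at 0.43 ± 0.06, Atp5g1 at 0.07 ± 0.07 and Atp5g2 at -0.00 ± 0.06 in WT; after quantile normalisation they were -0.08, -0.13 and -0.46.

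Atp5s and Atp5sl carry complex V symbols and fell under all 4 scalings. Atp5s, a coupling factor, stood at 4.42, 4.38 and 4.14 in D310N after 240 min, against 5.32, 5.25 and 5.29 at 0 min, and at 4.20, 4.26 and 4.27 in WT, against 5.20, 5.33 and 5.42. Its difference was -0.97 ± 0.12 in D310N and -1.08 ± 0.12 in WT (adjusted p = 1.2e-09). Atp5sl (Dmac2) stood at 6.52, 6.90 and 6.71 in D310N, against 7.41, 7.52 and 7.44, and at 6.47, 6.40 and 6.43 in WT, against 7.68, 7.49 and 7.51. The Atp5sl difference was -0.75 ± 0.08 in D310N and -1.13 ± 0.08 in WT (adjusted p = 1.48e-14). Under quantile normalisation Atp5s was at -0.68 in D310N and -0.78 in WT, and Atp5sl at -0.51 and -0.83. Of the 5 members called lower in WT at 240 min under all 4 scalings, Ndufv3 encodes a subunit, whereas Ndufaf7, Ndufaf4 and Atp5sl are known as assembly factors and Atp5s as a coupling factor.

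**Figure D3:**
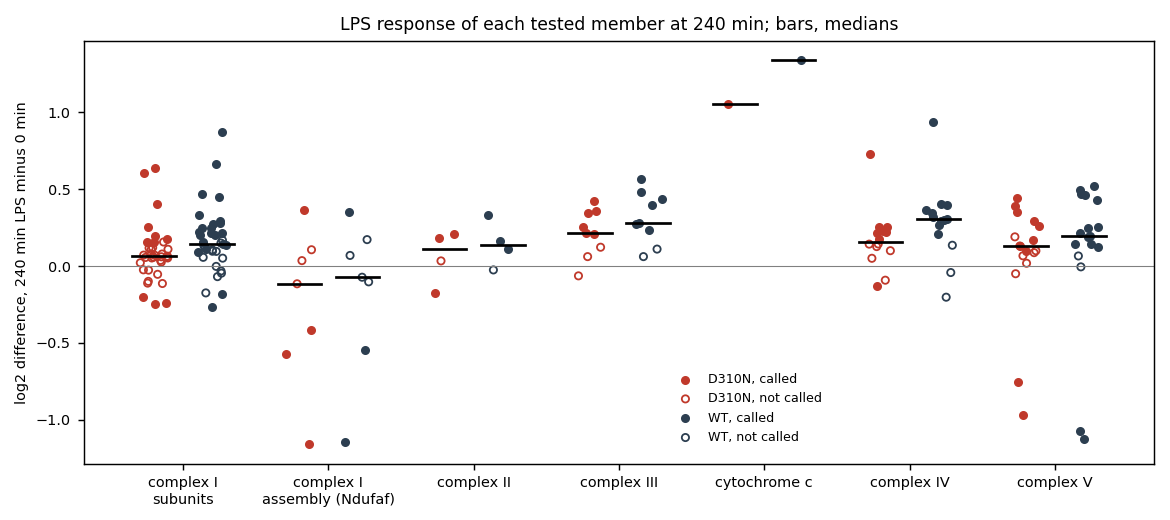
Log2 difference between 240 min of LPS and 0 min for each tested member by complex, D310N left of WT, on the values as deposited; filled points were called and bars are medians. Cycs stands highest and Ndufaf7, Atp5sl and Atp5s lowest in WT; the WT medians of complexes II, IV and V are above 0 here and below 0 after quantile normalisation.

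In D310N macrophages the members were counted in the same way. At 30 min 0 were higher and 1 lower, against 5.16% and 1.48% of all tested genes, and at 60 min 3 and 4, against 21.3% and 17.2%. The 1 at 30 min was Sdhd (-0.14 ± 0.04, adjusted p = 0.0291), which is not called without D310N replicate 1 or 3 of 0 min or without any of the 3 libraries of 30 min. The count of 7 at 60 min became 1 and 2 without D310N replicate 1 or 3 of 0 min, and 16, 4 and 4 without D310N replicate 1, 2 or 3 of 60 min. At 120, 240 and 360 min 16, 33 and 35 were higher, against 31.9%, 39.0% and 39.0% of all tested genes, and 3, 10 and 14 were lower, against 32.1%, 40.2% and 41.0%. After quantile normalisation 0 of 88 were higher and 6 lower at 30 min, against 4.86% and 4.38% of all tested genes, and 0 and 52 at 60 min, against 16.6% and 29.9%. At 120, 240 and 360 min 2, 12 and 12 were higher, against 26.0%, 32.1% and 33.4%, and 28, 38 and 41 lower, against 39.9%, 45.2% and 44.7%. The 7 members called higher at 240 min in D310N under all 4 scalings, among them Cox5a, Cycs, Ndufaf5, Ndufs4, Ndufv2 and Uqcrfs1, are all among the 17 of WT; 9 were lower under all 4, against 28.6% of all tested genes higher and 33.5% lower. Of the 33 members called higher in D310N at 240 min as deposited, 33 (100%) were called higher in WT, and these were 58.9% of the 56 of WT.

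The difference between the 2 responses was itself tested. As deposited, no member had an LPS response that was called different between D310N and WT at any of the 5 times, against 0%, 0.0686%, 0.935%, 1.95% and 2.01% of all tested genes. After quantile normalisation 1 of 88 was called at 240 min, where 175 of 11656 tested genes were called higher and 117 lower. It was Sdha of complex II, at -0.41 in D310N and -0.56 in WT against 0 min. At unadjusted p under 0.05 there were 0, 6, 4, 15 and 10 of 88 as deposited. The share of all tested genes at that level was not counted for single times, so nothing is read from these counts. Jointly over the 5 times 0 of 88 were called, against 4.84% of all tested genes, with 3 of 88 (3.41%) at unadjusted p under 0.05, against 15.7% of all. The 3 were Atp5sl and Sdha (adjusted p = 0.159 each) and Cox6c (adjusted p = 0.28). With library weights 6 members passed the joint test, and without D310N replicate 1 of 240 min 1 did. The response, as a signed log2 difference, was lower in D310N than in WT in 79 of 88 members at 60 min, 74 at 120 min, 81 at 240 min and 77 at 360 min, with median response differences of -0.10, -0.06, -0.08 and -0.06, against 0.0077, 0.013, 0.00032 and 0.0010 over all tested genes. These 4 counts share the 0 min libraries, so they are not independent of each other, and at 0 min the members' median was 0.08 higher in D310N. At 240 min the response difference as deposited was -0.28 ± 0.11 for Cycs (adjusted p = 0.179), -0.27 ± 0.10 for Ndufs4 (adjusted p = 0.205), 0.38 ± 0.11 for Atp5sl (adjusted p = 0.0638) and 0.10 ± 0.04 for Sdha (adjusted p = 0.205).

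Between the genotypes at a single time, few members differed. At 0 min 2 were higher and 0 lower in D310N, against 3.64% and 7.09% of all tested genes. They were Ndufa4 (0.19 ± 0.06, adjusted p = 0.035) and Ndufv2, which stood at 9.74, 9.61 and 9.73 in D310N and at 9.58, 9.53 and 9.50 in WT (0.16 ± 0.05, adjusted p = 0.0462). At 30 min 5 were higher and 0 lower, against 4.43% and 7.78%: Cox7b, Ndufa13, Ndufa4, Ndufb5 and Uqcrh, by 0.14 to 0.23. At 60 min 0 were called by limma, against 4.89% and 7.96%, and 9 with library weights. At 120 min 1 was lower, Ndufb3 (-0.24 ± 0.08, adjusted p = 0.0453), and 0 were higher, against 9.72% and 7.94% of all tested genes. At 240 min Atp5sl was higher (0.28 ± 0.08, adjusted p = 0.0124) and Ndufa1 lower (-0.20 ± 0.07, adjusted p = 0.046), against 6.98% and 10.0%. At 360 min Ndufv2 and Sdha were higher (0.17 ± 0.05 and 0.10 ± 0.03) and Cox7a1 lower (-0.48 ± 0.16, with overlapping libraries), against 6.80% and 9.52%. After quantile normalisation no complex I subunit gene was called at 240 or 360 min, and no complex IV gene at 360 min. The calls of Ndufa1 at 240 min and of Ndufv2 and Cox7a1 at 360 min were thus lost. The genes of these short lists that are not named by size or role are named after their values were seen.

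These small counts rested on single libraries. At 0 min the count ran from 0 to 4 when each library was left out, and was 0 without WT replicate 2 or 3 or without D310N replicate 1 or 3 of that time. At 30 min it ran from 0 to 9, and was 0 without WT replicate 3 or D310N replicate 1 of that time. With library weights 28 members were higher and 1 lower at 0 min, and 29 higher and 0 lower at 30 min. At 120 and 240 min it ran from 0 to 1 and from 0 to 4, changing by more than 1.5 times for 10 and for 15 of the 36 libraries left out; at 360 min it was 1 without D310N replicate 2 of that time. The members' median was 0.075 higher in D310N at 0 min and 0.071 higher at 30 min. Cytosolic ribosomal protein genes moved with them: their median was 0.128 and 0.125 higher, with 21 and 24 of 79 tested genes called higher and 0 lower. The library medians of the members also followed those of the ribosomal protein genes, with WT replicate 3 of 30 min lowest in both, at -0.253 from the mean of all libraries in each. Whether this shared movement has a part in the genotype differences was not tested.

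**Figure D4:**
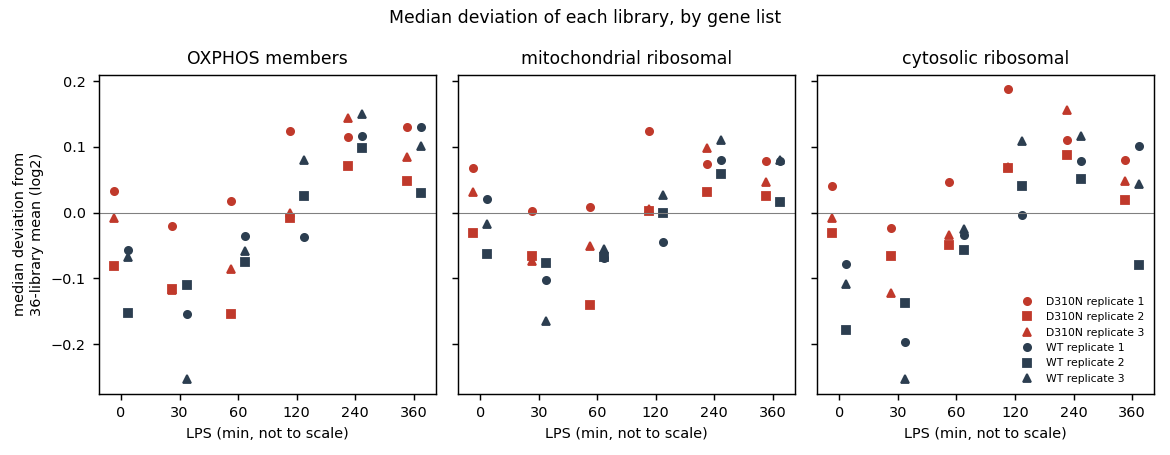
Median deviation of each library from the mean of all 36 libraries on the log2 scale, for the members, for mitochondrial and for cytosolic ribosomal protein genes, by LPS time, D310N left of WT; symbols mark the replicate number. The members' medians run from -0.253 (WT replicate 3 at 30 min) to 0.150 (WT replicate 3 at 240 min), and the lowest cytosolic ribosomal median belongs to the same WT library of 30 min.

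Averaged over the 6 times, 19 members were higher and 8 lower in D310N, against 22.7% and 25.4% of all tested genes, and under all 4 scalings the counts were 18 and 4, against 22.2% and 21.6%. After quantile normalisation alone they were 21 and 4, against 27.5% and 22.0%. The members' median was 0.027, with -0.0014 over all tested genes. The largest differences belonged to the weakly expressed muscle forms Cox6a2 (-0.31 ± 0.10, adjusted p = 0.0117) and Cox7a1 (-0.25 ± 0.07, adjusted p = 0.00218). Among the others the size was at most 0.14 on the log2 scale. Ndufaf4 and Ndufa6 were higher by 0.14 ± 0.04 and 0.14 ± 0.03, Ndufv2 by 0.13 ± 0.02 (adjusted p = 7.73e-06) and Ndufaf5 by 0.10 ± 0.04. Atp5g1 was higher by 0.10 ± 0.03 and Cox7b by 0.09 ± 0.03. Ndufb3 was lower (-0.10 ± 0.03, adjusted p = 0.0228) and was not called after quantile normalisation (-0.08, adjusted p = 0.0586). Complex V had 6 of 17 genes higher and 0 lower, and complex I 7 of 36 subunit genes higher and 3 lower. Cycs, the member with the largest LPS response, gave -0.01 ± 0.03.

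**Figure D5:**
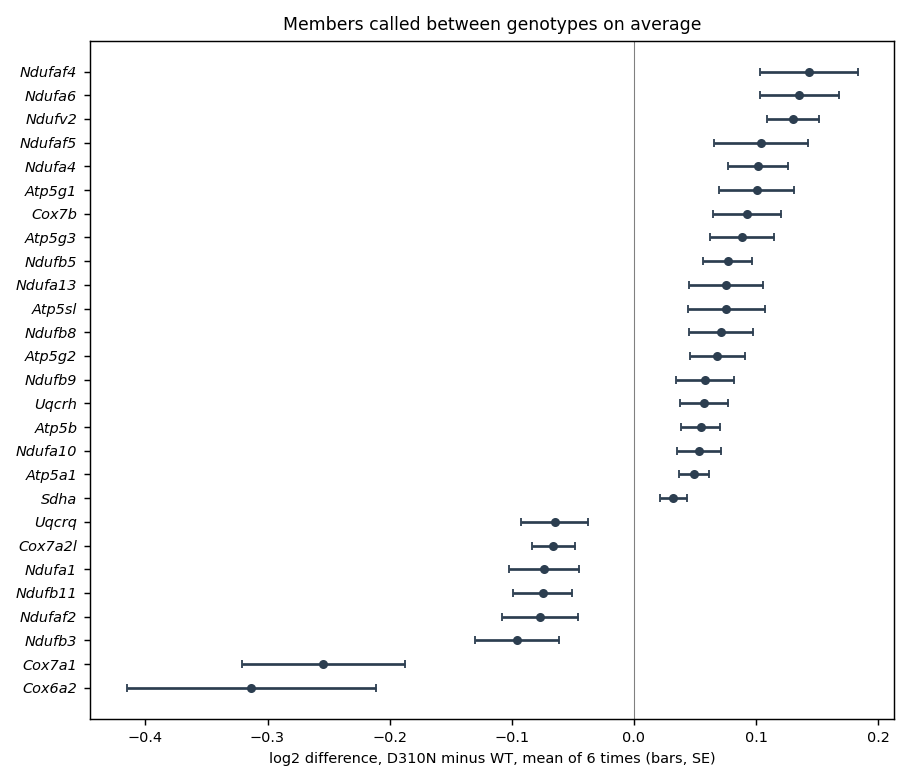
Log2 difference of D310N minus WT, as the mean over the 6 times with its SE, for the 27 members called on average. Cox6a2 (-0.31) and Cox7a1 (-0.25) lie farthest from 0, and the other 25 lie within 0.15 of it.

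Genes around the respiratory chain were compared by lists chosen for their role. Of 38 tested assembly factors outside the symbol rule, 14 were higher and 15 lower in WT at 240 min, with a median of 0.02, and 17 and 9 after quantile normalisation. Sco1 and Sco2, which deliver copper to complex IV, went apart: Sco1 rose by 1.70 ± 0.09 in D310N and 1.96 ± 0.09 in WT, and Sco2 gave -1.19 ± 0.14 and -1.47 ± 0.14. Coa5, another complex IV assembly factor, rose by 1.26 ± 0.05 and 1.41 ± 0.05. Of 13 citric acid cycle genes, 7 were higher and 2 lower as deposited, and 2 and 10 after quantile normalisation. Dld, a subunit shared by the 2-oxoacid dehydrogenases, gave 0.62 ± 0.05 in WT, and 0.13 after quantile normalisation, whereas citrate synthase (Cs) and Dlst gave 0.41 ± 0.03 and 0.38 ± 0.03 as deposited and -0.27 and -0.10 after it.

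Of 11 tested regulators of mitochondrial biogenesis, 6 were higher and 4 lower in WT at 240 min, and 5 and 4 after quantile normalisation. Ppargc1b, a coactivator, rose by 2.29 ± 0.16 in D310N and 2.26 ± 0.16 in WT. Gabpb1, which encodes the partner subunit of GABP, rose by 1.15 ± 0.07 and 1.18 ± 0.07, and Tfb1m, a methyltransferase of the mitochondrial ribosomal RNA, gave -0.48 ± 0.11 and -0.60 ± 0.11. Of the 6 partners whose symbols fall outside the rule 5 were higher in WT, among them Higd1a, a complex IV partner (0.72 ± 0.08), and Usmg5, a small subunit of complex V (0.45 ± 0.09). Mitochondrial ribosomal protein genes had 36 of 77 higher and 18 lower, with a median of 0.10 and with Mrpl52 at 1.00 ± 0.10, Mrpl13 at 0.82 ± 0.06 and Mrpl41 at -0.75 ± 0.09. Among cytosolic ribosomal protein genes, Rpl24 stood at 0.58 ± 0.04 as deposited and at -0.12 after quantile normalisation. After quantile normalisation the 6 partners had 3 higher and 1 lower, and the 77 mitochondrial ribosomal protein genes 42 higher and 14 lower. The background for these lists is the same as for the members. It is 39.6% of all tested genes higher and 40.4% lower as deposited, and 33.6% and 45.0% after quantile normalisation.

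Some members share sequence or place with other genes. Of the 90 members with a position, on 19 chromosomes, 39 overlap another annotated gene, 11 of them on the same strand, and 6 (Atp5c1, Atp5k, Atp5l, Cycs, Ndufab1 and Uqcrh) have a pseudogene named after them. The sources used here do not say whether reads were counted by strand, so reads of a member and of an overlapping gene cannot be told apart. Neither Ndufs4 nor Ndufaf7 overlaps another annotated gene.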

How the data were processed

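RNA was sequenced in 36 libraries as single-end reads of 75 bp. Per the submitters' processing notes, STAR 2.5.2a, the mm10 build, RSEM 1.2.31 and DESeq2 1.10.1 were used. The deposited table holds the authors' normalised values on a log2 scale, from -4.14 to 19.3; the log2 transformation is not given in the sources used here, and one that pulls low values together would shrink differences of weakly expressed genes. Depth per library is unknown, so no counting interval is given. The titles write D310N and the header D309N; D310N is used. Of 16439 rows, 23 with date-like names were left out. A gene was tested at 10 or more on the linear scale (3.32 log2) in at least 3 libraries.

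One mean per group was fitted over all 36 libraries with limma 3.58.1 (R 4.3.3; empirical Bayes with intensity trend, two-sided), with Benjamini-Hochberg adjustment over 11656 genes within each comparison. No pseudocount was added, since the table was already in log2. The fit was tested on simulated data. Alternatives were 3 other scalings, 2 filters, pseudocounts of 0.5, 1 and 8, no trend, library weights, the compared groups alone, the replicate number as a block and each library left out. Members and lists were chosen with earlier results of these data known. Genes named are, for each complex, up to 3 largest called rises and falls in WT at 240 min without overlap; the 10 largest average genotype differences; the 10 smallest joint p-values; complex II, cytochrome and isoform genes; up to 3 genes of each other list, AA467197, and untested members; a few of these genes are not reported here. Replicate numbers recur in all groups; same-numbered libraries correlated by over 0.1 in all 3 pairs only for D310N at 120 against 0 min. Gene positions are from GENCODE M21 and promoter sequences from RefSeq (GRCm38.p6).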

Additional observations from a re-analysis of the deposited data

Results flagged for a closer look

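A single result met a rule for a closer look. Rpl32l, a ribosomal protein gene named for its LPS response in WT at 240 min (2.04 ± 0.20), had an LPS time course that differed between D310N and WT in the joint test (limma, adjusted p = 0.000623). It is a near copy of Rpl32, so reads of the 2 genes may be shared and its value is uncertain. With 3 libraries per group, single libraries were not tested as outliers.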

How the results depend on the processing

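The rise of 17 of 88 members and the fall of 5 in WT at 240 min were called under all 4 scalings, against 29.0% and 33.6% of all tested genes. The members called in WT at 120, 240 and 360 min, in D310N at 240 and 360 min and between genotypes on average stayed within 1.5 times of the reported count in all alternatives run, though quantile normalisation changed their split. Under it the members' median LPS difference was -0.0675, -0.0309, -0.00117 and -0.0109 in WT and -0.18, -0.096, -0.0986 and -0.127 in D310N at 60 to 360 min. The cause was not tested beyond the dependence on level given above. After quantile normalisation 12 and 18 members were called in WT at 30 and 60 min, 6, 52 and 30 in D310N at 30, 60 and 120 min, and 9 and 1 between genotypes at 30 and 60 min. It also gave 1 called response difference at 240 min, that of Sdha.

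The other changes touched small counts. Library weights gave 7 and 13 calls in WT and 5 and 18 in D310N at 30 and 60 min, 29, 29, 9, 0, 7 and 7 between genotypes at the 6 times in order, and 6 in the joint test. With the compared groups alone, counts were 1 and 14 in WT at 30 and 60 min, 4 in D310N at 60 min, and 5, 12, 3, 0, 4 and 0 between genotypes; the average and the joint test need all groups. Between genotypes, a trimmed mean shift gave 2 at 30 min. No filter on low values gave 1, 2 and 1 at 0, 30 and 240 min, and 4 in D310N at 60 min. No intensity trend gave 1, 2, 0 and 1 at 0, 30, 120 and 240 min. With the replicate number as a block, where the pairing was not shown by the labels, 1 member was called in WT at 30 min and 10, 1 and 0 between genotypes at 30, 60 and 120 min. In D310N at 120 min, where same-numbered libraries deviated together, 22 were called under the block, against 19.

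Leaving out each library in turn gave 0 to 3 calls in WT at 30 min, 3 to 6 at 60 min, 0 to 1 and 1 to 16 in D310N at 30 and 60 min, and 0 to 1 in the joint test. Between genotypes the ranges were 0 to 4, 0 to 9, 0 to 2, 0 to 1, 0 to 4 and 1 to 4 at the 6 times. The median in WT at 240 min ran from 0.142, without WT replicate 2 of 0 min, to 0.231.

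For single genes in WT at 240 min, quantile normalisation reversed Sdhd (-0.087), Sdhc (-0.33), Sdha (-0.56), Uqcrc2 (-0.029), Uqcr11 (-0.021), Cox4i1 (-0.31), Cox6a1 (-0.18), Cox6b1 (-0.19), Cox7b (-0.0085), Cox8a (-0.020), Ndufa4 (-0.091), Atp5a1 (-0.29), Atp5b (-0.38), Atp5g1 (-0.13), Atp5g3 (-0.076), Cs (-0.27), Dlst (-0.10) and Rpl24 (-0.12) to negative and Cox7a1 (0.12) to positive. Atp5g2 became 0.0021 with a median shift, 0.0095 with a trimmed mean shift and 0.0043 with library weights. On average between genotypes, quantile normalisation gave Atp5s 0.056, Uqcr11 0.0092 and Ppargc1b 0.0075, and library weights gave Uqcr11 0.023, Sco1 -0.0097 and Coa5 -0.0015. Leaving out single libraries also turned values near 0: in WT at 240 min Atp5g2 ran from -0.068 to 0.057, Cox6a2 from -0.17 to 0.39, Ndufb3 from -0.037 to 0.11 and Uqcr11 from -0.0075 to 0.10; on average between genotypes Coa5 ran from -0.0034 to 0.027, Cycs from -0.029 to 0.0047, Ndufaf7 from -0.0024 to 0.039, Sco1 from -0.025 to 0.031, Sdhd from -0.00091 to 0.014, Uqcr10 from -0.010 to 0.016 and Uqcr11 from -0.019 to 0.018. Depth is unknown, so its limits cannot be given.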
